A study of Rattus norvegicus with 6 samples.

Results

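The miR-34 and miR-449 hairpins form 1 family of microRNAs, grouped by name: rno-mir-34a, rno-mir-34b, rno-mir-34c, rno-mir-449a and rno-mir-449c. The count tables of rat sperm small RNA gave a row for 4 of these 5 names, among 379 rows of miRNA hairpins matched to the genome and 26561 rows in all. No row matched rno-mir-449c, which is not analysed here beyond its sequence. The small RNA came from epididymal spermatozoa of wild type Wistar rats, 3 HPD fathers fed a high-protein diet for 2 to 3 months from 10 weeks of age and 3 SD fathers kept on the standard diet. The labels give an age of 5 months for both groups, and per the methods each library came from 1 rat. The sperm pellet of both groups had passed a hypotonic shock meant to remove somatic cells. The comparison asks whether the diet of the father goes with another level of these miRNAs in his sperm.

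A microRNA is cut from a hairpin precursor and guides the silencing of messenger RNAs that pair with its seed, the bases 2 to 8 of the mature strand. miR-34b, miR-34c and miR-449 are known from testis, where they accumulate as spermatocytes and spermatids form, and from epithelia that carry motile cilia. In mice, loss of the miR-34b/c and miR-449 loci together leaves males infertile. miR-34a is better known from somatic cells, where the tumor suppressor p53 induces it, and miR-34c of mouse sperm has been described as passing to the zygote at fertilization.

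The mature 5′ strands show what makes these hairpins 1 family. They are written 5′ to 3′ from RefSeq (build GRCr8), with the seed in capitals.
rno-miR-34a-5p: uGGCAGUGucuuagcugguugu
rno-miR-34b-5p: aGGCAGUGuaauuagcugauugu
rno-miR-34c-5p: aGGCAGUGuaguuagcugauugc
rno-miR-449a-5p: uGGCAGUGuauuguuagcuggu
rno-miR-449c-5p: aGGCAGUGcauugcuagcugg
All 5 carried the same seed, and no other of the 724 mature rat sequences in that table did. With positions counted from 1 at the 5′ end, miR-34b-5p and miR-34c-5p differed at 2 of 23 bases, A11G and U23C (the base of miR-34b first). miR-34a-5p and miR-449a-5p matched at 15 of 22 compared bases, while miR-34b-5p and miR-449a-5p matched at 10 of 22, position by position with no gap. The 3′ strands of miR-34b and miR-34c share a seed of their own, which no further mature sequence of the table held.
rno-miR-34b-3p: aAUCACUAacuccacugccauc
rno-miR-34c-3p: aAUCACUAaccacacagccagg
These are shown because the deposited rows count a whole hairpin, so the reads of the 5′ and 3′ strands are added together in each value. In the RefSeq annotation Mir34b and Mir34c are neighbours on the minus strand of chromosome 8, next to Btg4, Mir449a and Mir449c are neighbours on the plus strand of chromosome 2, and Mir34a lies apart from both on the plus strand of chromosome 5. The counts of the 4 hairpins were whole numbers in every library, although the same table splits reads that fit several RNAs into fractions.

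The libraries are called HPD2, HPD3 and HPD7 for the HPD group and CTRL1, CTRL2 and CTRL3 for the SD group. They held between 4141018 and 7920000 reads of small RNA. Of these, miRNA made up 11.3% to 15.1% in HPD and 20.9% to 28.9% in SD libraries. The 5′ fragments of tRNA-Gly-GCC, Glu-CTC, Val-CAC and Lys-CTT are known to be abundant in sperm. Together they held 15.3% to 17.3% of the reads in HPD and 21.5% to 22.9% in SD libraries. Gly-GCC overlapped between the diets, at 118694 to 137398 reads per 1000000 in HPD and 135199 to 160798 in SD libraries. The others were lower in each HPD library. These fragments do not stand for all tRNA fragments, which the paper reports as increased in HPD sperm. In the edgeR test given below, the 5′ fragments of Ser-GCT and Lys-TTT were called higher in HPD sperm. That of Glu-CTC was called lower. The 15 rows of X-linked testis miRNAs were also present in every library.

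miR-34b was the most abundant member in each library, ahead of miR-34c, miR-449a and miR-34a in that order. In normalized counts, which are reads divided by 1 factor per library, rno-mir-34b was at 47975, 53092 and 41768 in HPD2, HPD3 and HPD7, against 20684, 21249 and 42511 in CTRL1, CTRL2 and CTRL3. The SD library CTRL3 thus lay within the HPD range, while the other SD libraries were well below it. Among all miRNA hairpins rno-mir-34b ranked 3, 3 and 1 in these HPD libraries and 23, 15 and 9 in these SD libraries.

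rno-mir-34c, made from the same locus, was at 15164, 13863 and 14957 normalized counts in HPD2, HPD3 and HPD7, against 12332, 17620 and 9015 in CTRL1, CTRL2 and CTRL3. The HPD libraries were close to each other, with a coefficient of variation of 4.77% (n = 3), and lay inside the range of the SD libraries, which had one of 33.4% (n = 3). rno-mir-449a, the germ cell and ciliated cell member of the second locus, was at 2156, 1604 and 1643 normalized counts in HPD2, HPD3 and HPD7, against 1846, 2110 and 973 in CTRL1, CTRL2 and CTRL3. The groups overlapped for both hairpins, and CTRL3 was the lowest library for both, in contrast to its high miR-34b.

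rno-mir-34a was the rarest member, with 83, 83 and 53 reads in HPD2, HPD3 and HPD7 and 273, 137 and 91 reads in CTRL1, CTRL2 and CTRL3. In normalized counts these were 96.2, 72.2 and 36.0 in the HPD libraries, against 187, 178 and 114 in the SD libraries. Each HPD library was below each SD library. A lack of overlap in either direction was common among the miRNA rows tested, at 47.7% of 285 rows.

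Counts were not divided by length when members were compared. The mature 5′ strands of these hairpins are 22 or 23 bases long, and the lengths of the reads were not analysed. Within a library, rno-mir-34b had 1.21 to 4.72 times the reads of rno-mir-34c, rno-mir-34c had 6.68 to 9.27 times those of rno-mir-449a, and rno-mir-449a had 8.54 to 45.7 times those of rno-mir-34a. The order held in 6 of 6 libraries for each of these steps.

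**Figure D1:**
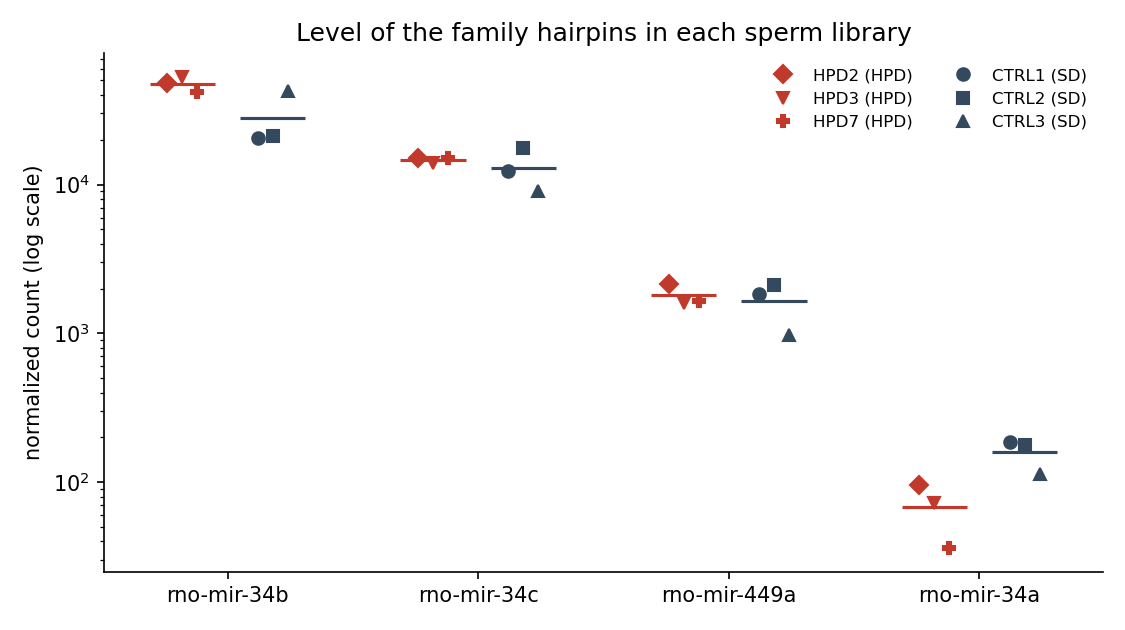
Normalized count of each family hairpin (log axis) in the 3 HPD libraries (red, left) and the 3 SD libraries (dark, right); horizontal lines are group means. For rno-mir-34b the SD library CTRL3 (42511) sits beside the HPD libraries, and for rno-mir-34a all HPD libraries lie below all SD libraries.

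None of the 4 hairpins passed the test of HPD against SD sperm. The test was the quasi-likelihood test of edgeR on rounded counts, with Benjamini and Hochberg adjustment over 1858 rows of all small RNA populations and a call at an adjusted *p* of at most 0.05. At an unadjusted *p* under 0.05, 2 of the 4 passed, rno-mir-34a and rno-mir-34b, as did 17.5% of all rows and 46.7% of the miRNA rows. The test called 8.61% of all rows and 29.1% of the 285 miRNA rows, and all 83 of the miRNA rows called were lower in HPD sperm. With DESeq2 rno-mir-34a was called, and no other member, where 35.7% of 277 miRNA rows were called.

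rno-mir-34b averaged 47611 ± 5671 normalized counts in HPD sperm and 28148 ± 12442 in SD sperm (mean ± s.d. over 3 rats on each diet). Its log2 fold change was 0.72 (standard error 0.28, 95% interval 0.10 to 1.34, adjusted *p* = 0.183 from edgeR). Without CTRL3 it was 1.13 and was called (adjusted *p* = 0.0172). Only 5 of the 285 miRNA rows had a larger log2 fold change. The direction of miR-34b was upward in each of 17 alternative settings, with log2 fold changes of 0.58 to 1.46 and adjusted *p* of 0.0106 to 0.451.

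rno-mir-34c averaged 14661 ± 699 normalized counts in HPD sperm and 12989 ± 4340 in SD sperm (± s.d., n = 3 rats each). The log2 fold change was 0.14 (standard error 0.26, 95% interval −0.45 to 0.73, adjusted *p* = 0.913 from edgeR). rno-mir-449a averaged 1801 ± 308 in HPD and 1643 ± 595 in SD sperm. Its log2 fold change was 0.09 (standard error 0.32, 95% interval −0.61 to 0.79, adjusted *p* = 0.950). These intervals include changes in both directions, and both values turned below 0 without CTRL3 (−0.07 for rno-mir-34c and −0.19 for rno-mir-449a), so no direction is given for either.

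rno-mir-34a averaged 68.1 ± 30.3 normalized counts in HPD sperm and 160 ± 39.9 in SD sperm (± s.d., n = 3 rats each). Its log2 fold change was −1.30 (standard error 0.42, 95% interval −2.23 to −0.38, adjusted *p* = 0.0923 from edgeR). The call was made with DESeq2 (−1.24, adjusted *p* = 0.0488), with library size alone (−1.46, adjusted *p* = 0.0422) and with rows of a mean count of at least 50 (−1.17, adjusted *p* = 0.0343). Without HPD7, the library with the fewest reads of this hairpin, its log2 fold change was −0.90 (adjusted *p* = 0.397).

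The miRNA rows as a whole were lower in HPD sperm, with a median log2 fold change of −0.86 against 0.03 for all rows tested. Against that shift rno-mir-34b, rno-mir-34c and rno-mir-449a were among the 51 miRNA rows with a value above 0, and rno-mir-34a was below the median, with 193 of the 285 rows above it. When the miRNA rows were normalized among themselves, their median was −0.09, and rno-mir-34b (1.46, adjusted *p* = 0.0106), rno-mir-34c (0.94, adjusted *p* = 0.0307) and rno-mir-449a (0.89, adjusted *p* = 0.0351) were called higher in HPD sperm. In that fit 8.90% of 281 miRNA rows were called higher and 16.4% lower. There rno-mir-34a had a log2 fold change of −0.55 (adjusted *p* = 0.280). In bulk RNA a change of the sperm content itself and a change of the other RNA of the library cannot be told apart, nor can fewer cells of a type and less RNA per cell.

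**Figure D2:**
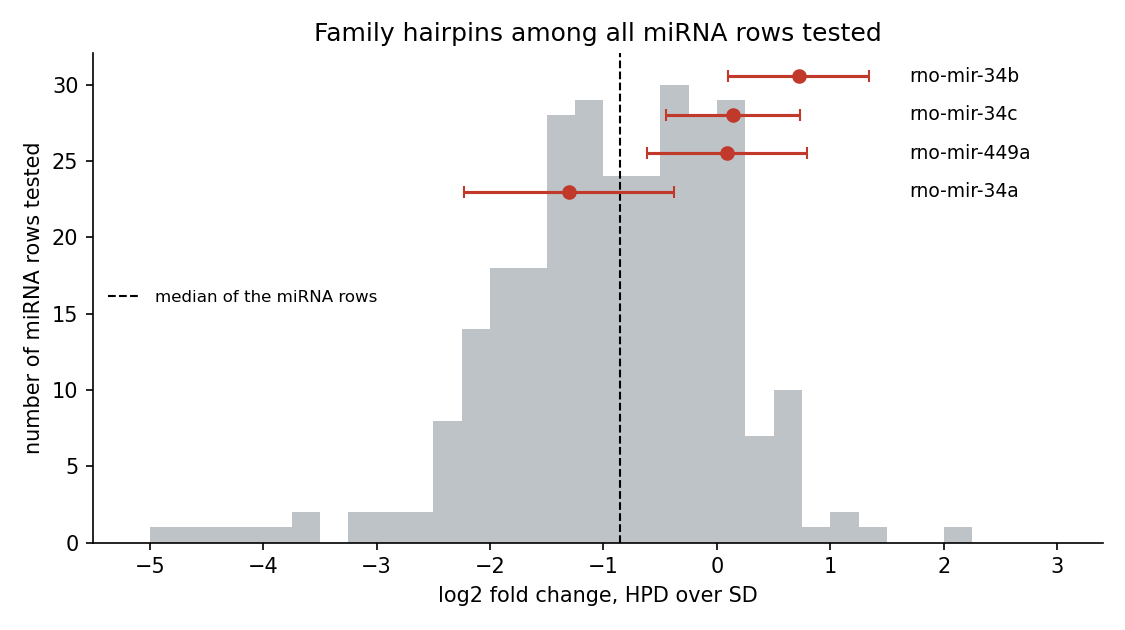
Distribution of log2 fold changes (HPD over SD) of the 285 miRNA rows tested (grey bars, number of rows) with the 4 family hairpins (points) and their 95% intervals; the dashed line is the median of the miRNA rows, −0.86. rno-mir-34b, rno-mir-34c and rno-mir-449a lie to the right of the median and rno-mir-34a to the left; the height of a point has no meaning.

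**Figure D3:**
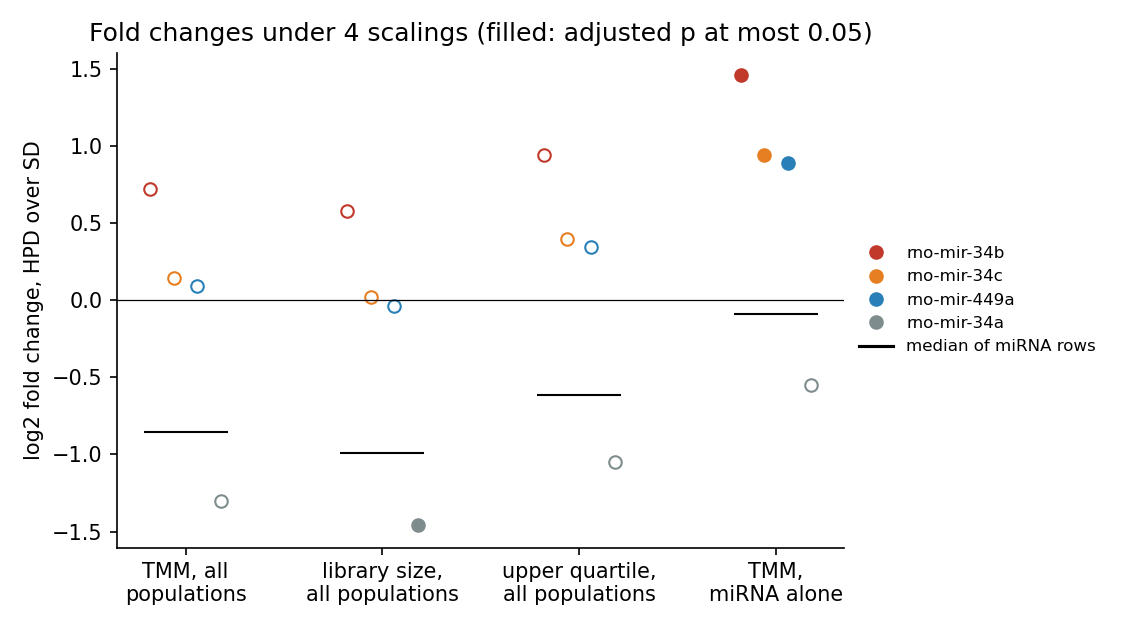
Log2 fold change (HPD over SD) of each family hairpin under 4 ways of scaling the libraries; filled points have an adjusted *p* of at most 0.05 and the black bars are the median of the miRNA rows. rno-mir-34b, rno-mir-34c and rno-mir-449a are filled with miRNA normalized alone, and rno-mir-34a with library size alone.

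The share of the miRNA reads does not depend on the other small RNA populations. rno-mir-34b held 4.80%, 5.93% and 7.33% of the miRNA reads in HPD2, HPD3 and HPD7, against 1.32%, 1.89% and 3.43% in CTRL1, CTRL2 and CTRL3. Each HPD library was above each SD library, CTRL3 included. The mean share was 6.02 ± 1.27% in HPD and 2.21 ± 1.09% in SD sperm (± s.d., n = 3 rats each; the exact permutation test, two-sided, gave *p* = 0.1 and an adjusted *p* of 0.25). For the 4 hairpins together the share was 6.54% to 10.2% in HPD and 2.24% to 4.25% in SD libraries, with means of 8.15 ± 1.90% in HPD and 3.38 ± 1.04% in SD sperm (± s.d., n = 3 rats each; exact permutation *p* = 0.1, adjusted *p* = 0.25). An exact test of 3 rats against 3 cannot go below 0.1, and 5 shares were tested. By share of miRNA reads, 42.5% of the 285 miRNA rows also showed no overlap of the groups.

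The shares of the other members overlapped between the diets. rno-mir-34c held 1.90 ± 0.630% of the miRNA reads in HPD and 1.03 ± 0.468% in SD sperm (± s.d., n = 3 rats each, exact permutation *p* = 0.3, adjusted *p* = 0.3), and CTRL2 with 1.57% was above HPD2 and HPD3. rno-mir-449a held 0.228 ± 0.0556% in HPD and 0.128 ± 0.0552% in SD sperm (n = 3 rats each, exact permutation *p* = 0.2, adjusted *p* = 0.25). rno-mir-34a held 0.00800 ± 0.00166% in HPD and 0.0123 ± 0.00334% in SD sperm (n = 3 rats each, exact permutation *p* = 0.2, adjusted *p* = 0.25). The 95% Wilson interval of a single library was 4.76% to 4.85% for rno-mir-34b in HPD2 and 0.00483% to 0.00825% for rno-mir-34a in HPD7, and such intervals cover counting error only.

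Taken over the reads of all populations, the 4 hairpins held 1.06 ± 0.0876% in HPD and 0.799 ± 0.173% in SD sperm (± s.d., n = 3 rats each, exact permutation *p* = 0.1, adjusted *p* = 0.25). The libraries did not overlap, but the highest SD library was at 0.988% and the lowest HPD library at 0.989%. On that base rno-mir-34c held 0.244 ± 0.0462% in HPD and 0.241 ± 0.0797% in SD sperm (n = 3 rats each, exact permutation *p* = 0.9, adjusted *p* = 0.9). rno-mir-34b, whose share of miRNA reads did not overlap, was here at 0.726% to 0.826% in HPD and 0.382% to 0.798% in SD libraries, which overlap (exact permutation *p* = 0.3, adjusted *p* = 0.5). rno-mir-34a, whose share of miRNA reads overlapped, was here at 0.000712% to 0.00146% in HPD and 0.00214% to 0.00345% in SD libraries, with no overlap (exact permutation *p* = 0.1, adjusted *p* = 0.25). How many miRNA rows lack overlap on this base was not counted. The miRNA reads as a whole did not overlap on it either, at 11.3% to 15.1% in HPD and 20.9% to 28.9% in SD libraries. rno-mir-449a was at 0.0240% to 0.0326% in HPD and 0.0183% to 0.0391% in SD libraries (exact permutation *p* = 0.8, adjusted *p* = 0.9).

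**Figure D4:**
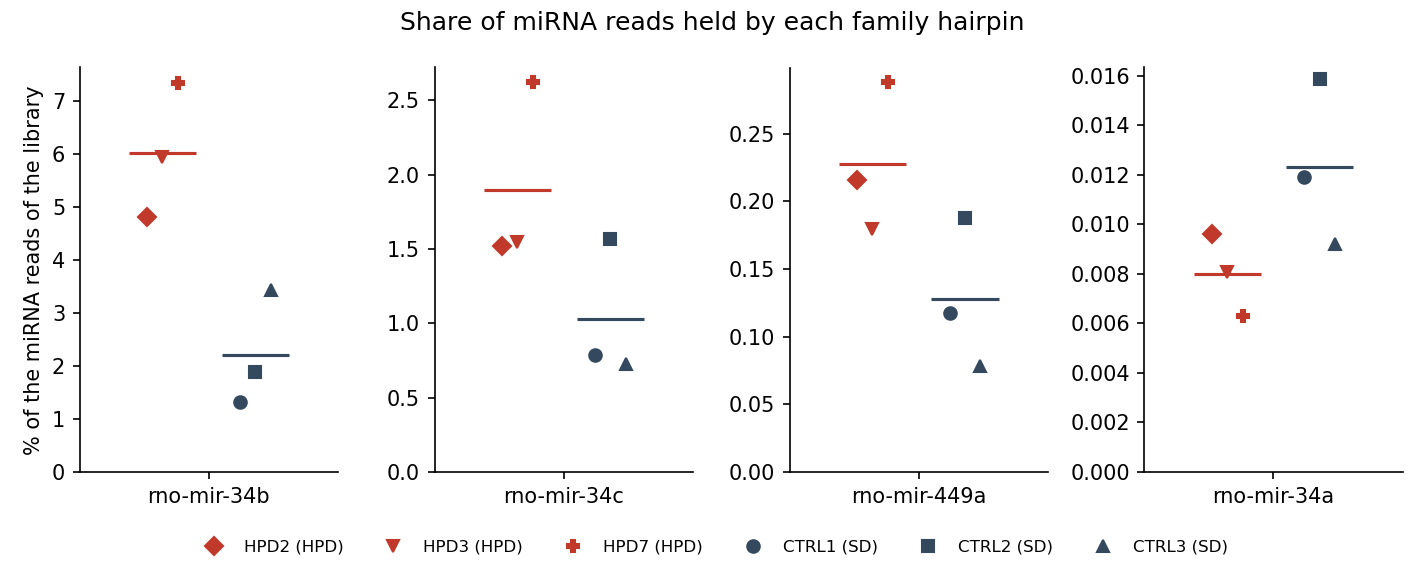
Percent of the miRNA reads of each library held by each family hairpin, in the 3 HPD libraries (red, left) and the 3 SD libraries (dark, right), with group means as lines and a separate axis from 0 for each hairpin. For rno-mir-34b the HPD libraries (4.80% to 7.33%) lie above the SD libraries (1.32% to 3.43%), while the groups overlap for the other hairpins.

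Ratios between members within a library do not depend on any normalization. The log2 ratio of rno-mir-34b to rno-mir-34c, which share a locus, was 1.66, 1.94 and 1.48 in HPD2, HPD3 and HPD7, against 0.75, 0.27 and 2.24 in CTRL1, CTRL2 and CTRL3. The SD libraries therefore stood on both sides of the HPD libraries, and their means, 1.69 ± 0.23 in HPD and 1.08 ± 1.03 in SD sperm, differed by less than the spread between SD libraries (n = 3 rats each, exact permutation *p* = 0.4, adjusted *p* = 0.6). Without CTRL3 the difference was 1.19, against 0.61 with all libraries.

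The log2 ratio of rno-mir-449a to rno-mir-34c was −3.04 ± 0.20 in HPD and −3.005 ± 0.24 in SD sperm (± s.d., n = 3 rats each, exact permutation *p* = 0.8, adjusted *p* = 0.8). These hairpins lie on different chromosomes, and their ratio varied less among the SD libraries than that of rno-mir-34b to rno-mir-34c. The log2 ratio of rno-mir-34a to rno-mir-34c was −7.30, −7.58 and −8.70 in HPD2, HPD3 and HPD7, against −6.04, −6.63 and −6.31 in CTRL1, CTRL2 and CTRL3. Each HPD library was below each SD library, a mean difference of −1.54 (n = 3 rats each, exact permutation *p* = 0.1, adjusted over 3 ratios *p* = 0.3). The reference of this ratio stood high, since only 32 of the 285 miRNA rows had a log2 fold change above that of rno-mir-34c. The median of the miRNA rows was −0.86. How many other miRNA rows also lack overlap relative to rno-mir-34c was not tested.

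**Figure D5:**
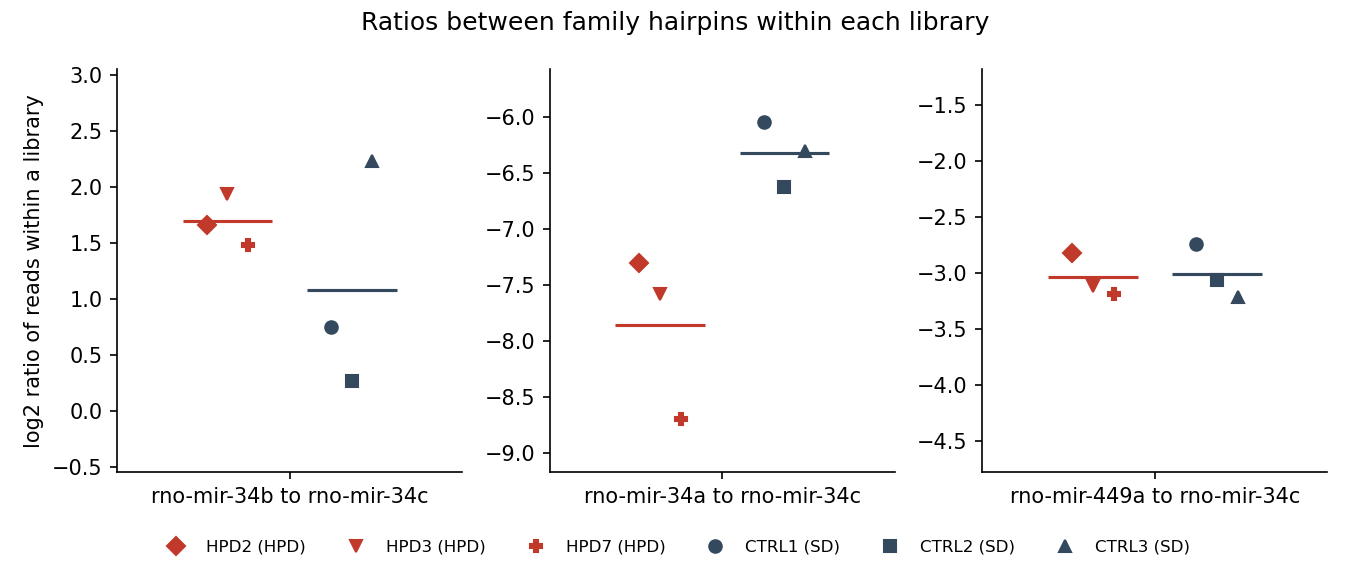
Log2 ratio of reads between family hairpins within each library, in the 3 HPD libraries (red, left) and the 3 SD libraries (dark, right), with group means as lines and axes of equal length in log2 units. For rno-mir-34b to rno-mir-34c the SD libraries spread from 0.27 to 2.24, and for rno-mir-34a to rno-mir-34c all HPD libraries lie below all SD libraries.

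The pattern over the 6 libraries set rno-mir-34c and rno-mir-449a together and the other members apart. Likeness was measured as the root mean square difference of log2 normalized counts, each row centred on its mean, over 6 libraries and among 141 other miRNA hairpins with a mean normalized count above 200. rno-mir-34c and rno-mir-449a differed by 0.18, while rno-mir-34c and its neighbour rno-mir-34b differed by 0.68. Closest to rno-mir-34c were rno-mir-19b-2 (0.087), rno-mir-19b-1 (0.11) and rno-mir-20a (0.19). Closest to rno-mir-449a were rno-mir-19b-2 (0.12), rno-mir-19b-1 (0.16) and the X-linked testis hairpin rno-mir-743b (0.25). The rows rno-mir-19b-1 and rno-mir-19b-2 are numbered copies, so they are not separate matches. rno-mir-34b had no close match, with rno-mir-3068 at 0.44, rno-mir-872 at 0.51 and rno-mir-132 at 0.55. rno-mir-34a was closest to rno-mir-181b-2 (0.22), rno-mir-10a (0.26) and rno-let-7i (0.26), of which rno-mir-181b-2 (log2 fold change −1.44, adjusted *p* = 0.0224 from edgeR) and rno-mir-10a (−1.53, adjusted *p* = 0.00867) fell in HPD sperm.

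Among other miRNAs of the germ line, 15 of 16 X-linked testis miRNAs had a row and 15 were tested. None was called in either direction by edgeR, 0 were at an unadjusted *p* under 0.05 and 0 were called by DESeq2, where the shares over all miRNA rows were 29.1%, 46.7% and 35.7% for these criteria in turn. Their median log2 fold change was 0.06, beside 0.14 for rno-mir-34c, 0.09 for rno-mir-449a and 0.72 for rno-mir-34b. The highest values of the list were 0.61 for rno-mir-465 and 0.55 for rno-mir-880, both below rno-mir-34b. The lowest of the list were −0.56 for rno-mir-201 and −0.47 for rno-mir-883. The summed level of the list was 7841 to 10571 RPM (reads scaled to a library of 1000000) in HPD and 7023 to 13324 in SD libraries.

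Of 6 listed hairpins outside the family that p53 is known to raise or process in somatic cells, 4 fell and none rose in HPD sperm. The median log2 fold change of the list was −3.13. Over all miRNA rows 29.1% were called, all lower, and the median was −0.86. The list does not hold every miRNA linked to p53, and it was chosen with earlier results of these data known. The 4 that fell were rno-mir-192, rno-mir-194-1, rno-mir-194-2 and rno-mir-107. Of these, rno-mir-192 was at −4.47 (adjusted *p* = 5.69e-05 from edgeR) and rno-mir-194-2 at −3.99 (adjusted *p* = 0.000237). These calls are not separate results, since rno-mir-194-1 and rno-mir-194-2 are numbered copies and rno-mir-194-2 and rno-mir-192 are neighbours within 1000 bases. Those not called were rno-mir-145 at −0.86 and rno-mir-215 at 0.47, the latter with a mean normalized count of only 13.8 and a standard error of 1.03. Beside these 6 hairpins rno-mir-34a had the value of −1.30 given above, and a part of p53 in any of these values was not tested.

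Markers of somatic cells are given beside rno-mir-34a, and their counts are to be read against the 29.1% of all miRNA rows that were called, all lower. The summed levels of the leukocyte, endothelial and erythroid lists did not overlap between the diets, while those of the epithelial list and of the smooth muscle and stroma list did. These levels are scaled to the reads of all populations, and on that base the miRNA reads as a whole did not overlap either. They held 11.3% to 15.1% of the reads in HPD and 20.9% to 28.9% in SD libraries. In normalized counts 47.7% of the 285 miRNA rows had no overlap. The 6 leukocyte miRNAs summed to 1035 to 1117 RPM in HPD and 2165 to 2456 in SD libraries, with 4 of 6 called lower and none of them without reads in any library. The endothelial rno-mir-126a was at 153 to 259 RPM in HPD and 571 to 1200 in SD libraries. The 3 erythroid miRNAs summed to 101 to 123 in HPD and 206 to 304 in SD libraries, with 1 called lower. This sum used rows matched to the genome, where rno-mir-486 had a mean normalized count of only 14.9. Another row of rno-mir-486, not matched to the genome, was left out (log2 fold change −0.40, adjusted *p* = 0.620 from DESeq2). The 7 epithelial miRNAs, listed because of the ciliated epithelium of the male tract, which in mice also makes miR-34b, miR-34c and miR-449, summed to 5158 to 7731 in HPD and 7496 to 14283 in SD libraries, with 1 called lower. The 4 miRNAs of smooth muscle and stroma summed to 4105 to 9804 in HPD and 7361 to 16801 in SD libraries, with 2 called lower. The part of these cells in the values of rno-mir-34a and of the other members was not tested. The libraries carry no batch label, so a batch confounded with diet and the diet itself cannot be told apart.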

How the data were processed

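Small RNA of epididymal sperm was measured in 3 HPD and 3 SD libraries. After trimming, the authors used SPORTS1.0 on Rnor_6.0 for annotation and deposited estimated counts, not normalized, in 1 row per RNA. The submitters' notes also name Bowtie, DESeq, DESeq2 and mm9. The authors' second table holds a signal, the deposited normalized counts, which are whole reads divided by 1 factor per library. Of these values 100% were whole reads within 1e-06 after multiplication by the DESeq2 size factors of the cut counts. The same edgeR test on these recovered reads called 164 of 1825 rows, against 160 of 1858, an alternative chosen after seeing the data.

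Columns were grouped by diet, since single columns could not be tied to single sample titles. The snoRNA row, a total that names no RNA, was left out. The quasi-likelihood test of edgeR 4.0.16 (R 4.3.3) was run on the rounded estimated counts (TMM, filterByExpr at min.count 10 and min.total.count 15, library size without tRNA end rows nested in a whole-tRNA row). Of the 5 names, 4 had a row and all 4 passed the filter. Standard errors were derived from the F statistic. Alternatives used DESeq2 1.42.0, limma 3.58.1 on log2 of normalized counts plus 1 or 0.5, other factors and filters, miRNA rows alone and each library left out. For shares and ratios the exact permutation test of scipy 1.17.1 was used, two-sided. Figures used matplotlib 3.10.9. The edgeR procedure was also tested on simulated data. Named RNAs were the family, the 3 hairpins most like each member, and listed miRNAs, the 2 highest and 2 lowest of each list. The members and lists were chosen with earlier results of these data known, and the comparison of neighbouring hairpins after their values were seen. Reads of the separate hairpin arms and read lengths were not analysed here.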

Additional observations from a re-analysis of the deposited data

How the results depend on the processing

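The number of family hairpins called was 0 of 4, where 8.61% of the rows tested were called. It was 1 with library size alone (9.36% of the rows tested), 1 with no filter on low counts (0.663%), 1 with DESeq2 (15.8%), 2 with a mean normalized count of at least 50 (40.1%) and 3 with miRNA rows fitted alone (25.3%). Leaving out 1 library gave 0 to 1 calls, the 1 being rno-mir-34b without CTRL3 (5.75% of the rows tested). rno-mir-34a was called with library size alone (−1.46), a mean count of at least 50 (−1.17) and DESeq2 (−1.24), and it was at −1.52 to −0.90 with 1 library left out. rno-mir-34b was called with a mean count of at least 50 (0.88), no filter (1.01) and miRNA rows alone (1.46), and it was at 0.59 to 1.13 with 1 library left out. rno-mir-34c (0.94) and rno-mir-449a (0.89) were called with miRNA rows alone only. With 1 library left out rno-mir-34c was at −0.075 to 0.48 and rno-mir-449a at −0.19 to 0.36, the lowest of each without CTRL3, and rno-mir-449a was at −0.038 with library size alone. Library size alone and upper quartile factors moved the median of all rows tested from 0.03 to −0.09 and 0.28, and no filter to 0.68. Fitting miRNA rows alone moved the median of the miRNA rows from −0.86 to −0.09. As HPD minus SD, the share of rno-mir-449a was −0.000798 percentage points on all reads and 0.0998 on miRNA reads, so its sign was reversed. Its log2 ratio to rno-mir-34c, −0.033 as HPD minus SD, was −0.144 to 0.0997 with 1 library left out. It was above 0 without CTRL1 (0.0997), HPD3 (0.0043) or HPD7 (0.042). The cause of these changes was not tested. No paired analysis was possible because the columns could not be tied to the replicate numbers of the sample titles. rno-mir-34a rests on 53 to 273 reads per library.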

Other observations

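The hairpins rno-mir-34b and rno-mir-34c are neighbours, and the ratio of their reads varied more among the SD libraries than that of the other neighbours compared. Among 12 pairs of hairpins within 1000 bases of each other on the same strand in RefSeq, both with a mean normalized count above 200, the ratio of rno-mir-34c to rno-mir-34b spread 3.91-fold over the 3 SD libraries, the widest of the 12. The next were rno-mir-25 and rno-mir-93 with 3.28-fold, and the narrowest were rno-mir-222 and rno-mir-221 with 1.12-fold. Over the 3 HPD libraries the spread of rno-mir-34c to rno-mir-34b was 1.37-fold, and 4 of the 12 pairs were wider, up to 2.79-fold for rno-mir-194-2 and rno-mir-192. The pairs were compared after their values had been seen, as a description with no test.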
